A study of Homo sapiens with 18 samples.

Results

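RNA levels at time point 40 were compared with those at time point 20 in cells that had received no etoposide, the arm that the sample titles name DMSO. The samples were chosen by their titles: 3 libraries of each time point, 6 of the 18 libraries in the series, with the replicate number as a pairing term. All 6 come from hTERT RPE-1, a human retinal pigment epithelium line kept dividing by a telomerase transgene. Per the labels' protocols, every culture was grown in 10% FBS and then held for 48 h in 0.1% FBS, and the labels place the cells in G0/G1. Triptolide was used at 10 µM, and the other arm of the series had 50 µM etoposide for 30 min before it. DMSO is the usual solvent for such compounds. The labels give no unit for the time points and do not say whether triptolide was already present at 0, so 20 and 40 serve here as names. They call the replicates independent. No source names separate cultures beyond that word, so p-values describe the spread between these libraries.

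Triptolide binds XPB, the ATPase of the general transcription factor TFIIH, and stops RNA polymerase II from starting new transcripts. Under such a block the messages with the fastest turnover drop first, and the transcripts of early response genes and of feedback inhibitors of signalling are known for short lives. Many of them carry AU-rich elements in the 3′ untranslated region (UTR), to which proteins of the ZFP36 family bind and recruit the deadenylation machinery.

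The 6 libraries held 9536488 to 11426144 counts (median 10726422), so that 3 counts, taken as the floor of detection, equalled 0.263 to 0.315 CPM, that is counts relative to the normalised size of the library. Retinal pigment epithelium markers summed to 1960 to 3040 CPM at time point 20 and 1800 to 2550 at 40. The sums rest mainly on KRT8, KRT18, EZR and SLC16A3. No other marker of that list exceeded 65.3 CPM, the value of MITF in replicate 3 of time point 20. Over the 6 libraries MITF and OTX2 had 2734 and 1453 raw counts, while RPE65, LRAT and TYR had only 14, 8 and 1. PMEL, RLBP1 and TYRP1 had 75, 53 and 38, and 13 markers of the list had a mean above the floor. DCT and TTR, 2 of the 18 markers in that list, were at 0 in all 6 libraries. Mesenchymal markers summed to 11200 to 12300 and 10800 to 12900 CPM, most of it VIM, which alone read 9960 to 12000 CPM. Of the 11 markers in that list 8 had a mean above the floor. COL1A2, LUM and COL3A1 had only 8, 15 and 17 raw counts over the 6 libraries. Markers of other epithelia, led by KRT7, summed to 56.1 to 70.6 and 53.1 to 75.5 CPM, with CDH1, KRT5 and KRT14 at 0. Blood markers summed to at most 1.85 CPM, photoreceptor markers to 1.05 and endothelial markers to 4.64, with CD3E, HBB, CRX and CLDN5 at 0. CPM is relative to the library, so a loss of RNA common to all genes could not be seen.

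Between time points 20 and 40, 110 genes fell and none rose. They were led by the stress and growth regulators ADM, PLK2, IER2, SPRY2, MYC and SOCS3. The 110 were 0.775% of the 14186 genes tested (edgeR quasi-likelihood test, Benjamini-Hochberg adjusted p below 0.05), and the genes called higher were 0%. All 110 were lower in each of the 3 numbered pairs. Their median change was -1.09 on the log2 scale, which leaves 47% of the level at time point 20, and single genes ranged from -0.43 for RGS3 to -3.89 for IER3. RGS3 lost its call (adjusted p 0.0942 to 0.221) without any 1 library other than replicate 1 of time point 20. The median over all tested genes was -0.0021. Of the 110, 60 fell more than 2-fold and 9 more than 4-fold. In 91 of them the 3 libraries of time point 40 lay below all 3 of time point 20, an arrangement found in 4.2% of all tested genes and in 1.58% in the opposite direction. Together the 110 genes made up 6510 CPM at time point 20 and 3265 at 40. At an unadjusted p below 0.05 there were 1088 genes, 636 of them lower and 452 higher.

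The pairing by replicate number bears on the count. Without the replicate block 31 genes were called, all lower and all among the 110. Without replicate 3 of every group 51 were called, of which 50 were among the 110, and a fit of the 6 libraries alone called 49, of which 48 were. Of the 81 called genes that the naming rule or the text names, 27 were called without the block: ADM, SOCS3, MYC, IER2, TRIB1, ZFP36L1, ZFP36L2, SPRY1, DUSP6, ID1, SMAD7, PIM1, ARRDC3, SNAI2, BHLHE40, KLF6, PPP1R15B, ZBTB39, ZNF574, MIR222HG, CSRNP1, NUAK2, GADD45B, EIF4A1, SGK1, MIDN and PPP1R3C. The other 54, among them PLK2, SPRY2, JUN, NFKBIA and DDIT4, missed the threshold in that fit with the same direction. When any 1 of the 6 libraries was left out, 52 of the 81 were called every time.

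**Figure D1:**
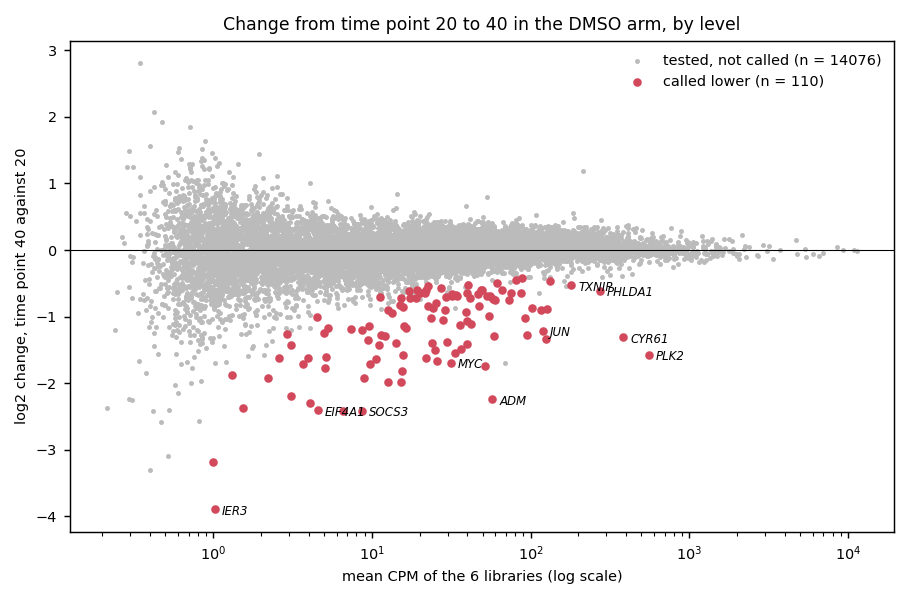
Log2 change from time point 20 to 40 in the DMSO arm (vertical axis) against the mean CPM of the 6 libraries (horizontal axis, log scale), 1 point per tested gene. The 110 genes called lower, in red, all lie below 0 and span levels from about 1 CPM to over 100 CPM, where 10 of 2151 tested genes were called.

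The 3′ UTR stretches below are printed because they hold the AU-rich nonamer in genes described below that fell. Each is a 29-base site on the strand of the gene, read 5′ to 3′ from GENCODE release 29 transcripts on GRCh38, with the nonamer in capitals.
ZFP36, chr19:39409196-39409224, plus strand: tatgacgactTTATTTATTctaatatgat
FOS, chr14:75282060-75282088, plus strand: tgtttttaatTTATTTATTaagatggatt
DUSP1, chr5:172768643-172768671, minus strand: gggctggtccTTATTTATTtaacttcacc
PLK2, chr5:58454066-58454094, minus strand: aataaactttTTATTTATTacagcccaaa
ZBTB39, chr12:57001264-57001292, minus strand: acattaatatTTATTTATTtttgtttttg
The 3′ UTR of ZFP36 is 713 bases long and also matches ATTTA 5 times, that of FOS 806 bases with 5 matches, and that of ZBTB39 3945 bases with 11. DUSP1 holds the nonamer 2 times in 672 bases, and PLK2 holds it 1 time in 601. Searched as TTATTTATT on the transcript strand alone, the nonamer occurred in the 3′ UTR of 21 of the 103 protein-coding genes that fell (20.4%) and of 9.57% of all tested coding genes. The pentamer ATTTA, which lies within the nonamer, had a median density of 2.61 per 1000 bases in the former and 1.73 in the latter. UTRs with 5 or more ATTTA matches were about as frequent in both, at 31.1% and 34.5%. That count takes no account of length, and the median UTR had 1127 bases in the former and 1404 in the latter. Among the called coding genes, the nonamer was in 17.9% of those that fell more than 2-fold and in 23.4% of the others. That difference was not tested. A match describes the letters of the transcript and not a bound site.

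Among the early response genes, the transcription factors and regulators that cells induce first on stimulation, 25 of 46 tested fell and none rose. That is 54.3% of this list against 0.775% of all tested genes, the share to set beside each list count below. All lists were written with earlier results of these data known. The early response list had a median change of -0.78, and 45 of the 46 values were below 0. The medians in the replicate pairs 1, 2 and 3 were -0.67, -0.96 and -0.73. Without the replicate block 9 of the 46 were called.

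MYC, the growth-promoting transcription factor (chromosome 8, 127735434 to 127741434), stood at 43.0, 40.2 and 60.6 CPM in replicates 1 to 3 of time point 20 and at 12.3, 12.8 and 19.5 CPM at 40. Every library of time point 40 lay far below every library of time point 20, and replicate 3 was the highest at both. MYC fell by 1.70 ± 0.14 (SE) on the log2 scale, with an adjusted p of 1.01e-07. IER2, an immediate early response gene (chromosome 19, 13150415 to 13154908), went from 80.4, 88.2 and 68.2 CPM to 25.4, 28.1 and 18.6 CPM. The groups did not overlap, and 30.1% of the level remained (adjusted p 1.01e-07). AC011446.2 overlaps IER2 on the opposite strand, and their reads cannot be told apart without the strand setting of the counting. The same holds for 32 of the 110 genes, including ARRDC3, DDIT4, DUSP6, CSRNP1, JUNB, LIF, PLK3 and BHLHE40.

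Of 5 genes of the AP-1 family described here, JUN, FOS and JUNB were called and FOSL1 and ATF3 were not; all 5 changes were below 0, and differences between them were not tested. JUN read 153, 230 and 116 CPM at time point 20 and 76.1, 96.6 and 44.1 CPM at 40, a change of -1.22 ± 0.14 (adjusted p 1.22e-05). FOS, its dimerisation partner, read 12.3, 18.3 and 10.4 CPM and then 4.50, 6.51 and 1.37 CPM, a change of -1.93 ± 0.40 (adjusted p 0.0351), which became 0.0938 to 0.289 when replicate 2 of time point 20 or any 1 library of time point 40 was left out. For both genes all libraries of time point 40 lay below all of time point 20. JUNB changed by -1.50 ± 0.26 (adjusted p 0.00505, and 0.0809 to 0.092 without replicate 1 or 2 of time point 40). FOSL1 and ATF3 missed the threshold: FOSL1 changed by -0.38 ± 0.11 (adjusted p 0.144) and ATF3 by -0.27 ± 0.20 (adjusted p 0.834). EGR1, a zinc-finger factor of the same early wave, read 105, 114 and 97.0 CPM and then 29, 34.7 and 33.5 CPM. Its groups lay far apart, but its change of -1.70 ± 0.37 had an adjusted p of 0.0903 in the fit over 18 libraries. It passed under 7 of 17 alternatives, with an adjusted p of 0.000965 by DESeq2, 0.00224 by limma-voom, 0.00148 in the 6 libraries alone and 0.0412 without replicate 3 of time point 40.

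PLK2, a polo-like kinase that is also a p53 target (chromosome 5, 58453982 to 58460260), read 732, 610 and 1150 CPM at time point 20 and 236, 190 and 423 CPM at 40. Replicate 3 was again highest, and no library of time point 40 reached the lowest of time point 20. PLK2 fell by 1.57 ± 0.11 on the log2 scale (adjusted p 2.07e-08). CYR61, a matricellular ligand induced by YAP, read 439, 414 and 785 CPM and then 183, 142 and 350 CPM, and fell by 1.31 ± 0.12 (adjusted p 1.18e-06). CYR61 was the only 1 of 14 YAP/TAZ targets to be called. Its relative CTGF changed by -0.36 ± 0.09 (adjusted p 0.0903) and passed under 4 of 17 alternatives, with adjusted p of 0.0267 by DESeq2, 0.0491 with library totals alone, 0.0203 without replicate 1 of time point 20 and 0.0141 without replicate 1 of 40.

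Further members of the list that fell ranged from Krüppel-like factors to a pseudokinase. KLF6 changed by -1.02 ± 0.13 and KLF2 by -1.01 ± 0.19, both of that factor family, with adjusted p of 6.64e-05 and 0.00604. KLF2 lost its call (adjusted p 0.06 to 0.0864) without replicate 2 or 3 of time point 20 or replicate 1 or 2 of 40. BHLHE40, a repressor tied to the circadian clock and to hypoxia, changed by -1.06 ± 0.13 (adjusted p 4.47e-05). IER5L changed by -1.64 ± 0.33 (adjusted p 0.0222, and 0.0987 to 0.213 without any 1 library other than replicate 1 of time point 20). IER3 had only 29, 32 and 2 raw counts at time point 20 and 2, 2 and 0 at 40, so the size of its fall is poorly known (adjusted p 0.00435, and 0.0942 or 0.101 without replicate 1 or 2 of time point 40). TRIB1, a pseudokinase that steers protein degradation, read 27.9, 27.1 and 17.9 CPM and then 6.80, 5.10 and 6.43 CPM, a change of -1.98 ± 0.22 (adjusted p 1.03e-05).

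**Figure D2:**
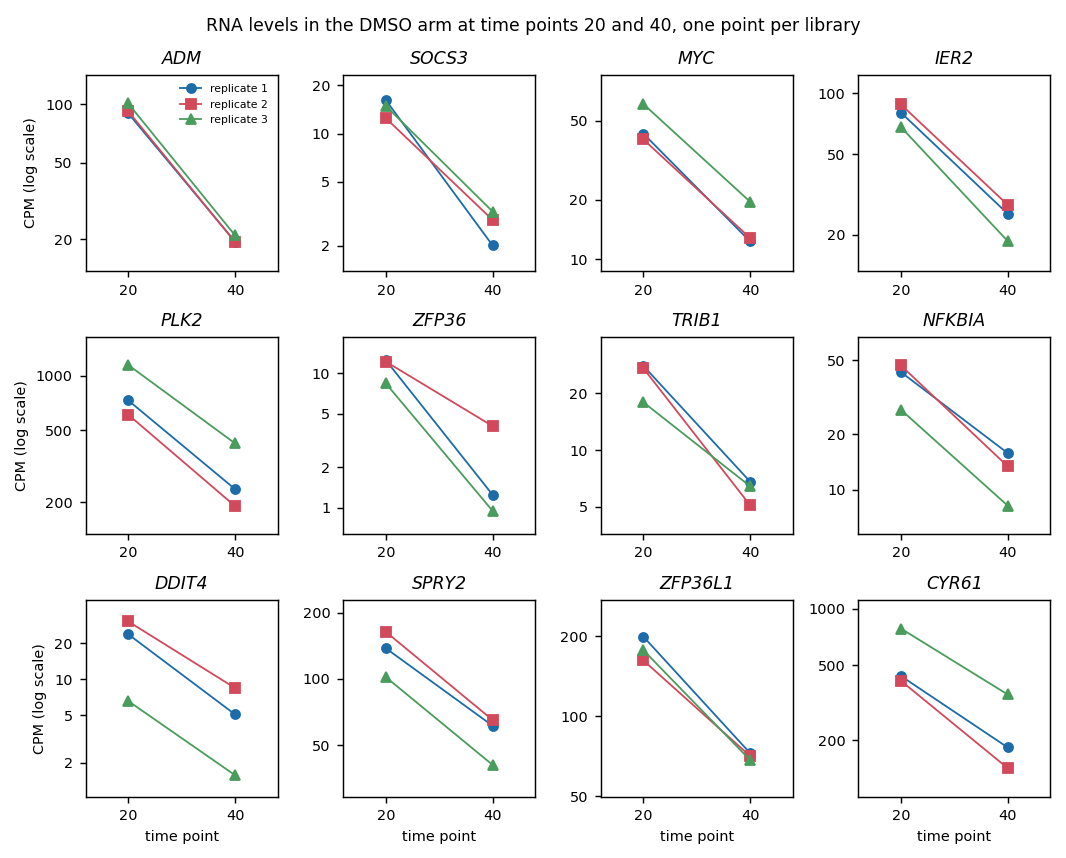
CPM of 12 genes that fell (vertical axes, log scale, each panel with its own range) at time points 20 and 40 of the DMSO arm, with 1 point per library and a line joining libraries of the same replicate number. All lines descend, and in DDIT4 replicate 3 starts at 6.57 CPM, below the 8.44 CPM that replicate 2 reached at time point 40.

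The list of ERK feedback genes includes dual-specificity phosphatases, Sprouty proteins and PHLDA1. It had 7 of 19 tested members called lower, with a list median of -0.36 (2 of 19 without the replicate block). SPRY2, which restrains receptor tyrosine kinase signalling, read 138, 164 and 102 CPM at time point 20 and 61.2, 65 and 40.6 CPM at 40. All libraries of time point 40 were lower than all of 20, and SPRY2 fell by 1.28 ± 0.10 on the log2 scale (adjusted p 1.01e-07). SPRY1 changed by -2.18 ± 0.29 from levels of 4.35 to 5.96 CPM (adjusted p 7.5e-05). DUSP6, the cytoplasmic ERK phosphatase, read 52.6, 63.4 and 44.8 CPM and then 22.6, 18 and 16.4 CPM, a change of -1.49 ± 0.15 (adjusted p 2.82e-06). DUSP1, the nuclear phosphatase whose nonamer is printed above, read 20.6, 28.4 and 22.3 CPM and then 7.38, 11.6 and 2.32 CPM. Replicate 3 of time point 40 was the lowest by a wide margin, and the change of -1.82 ± 0.37 carried an adjusted p of 0.0404, which became 0.0732 to 0.215 with any 1 of the 6 libraries left out. The other called members, PHLDA1, DUSP5 and DUSP4, retained 65.6%, 61.1% and 72.2% of their levels. DUSP4 lost its call without any 1 library (adjusted p 0.0713 to 0.239) and DUSP5 without replicate 2 or 3 of either time point (0.0625 to 0.163).

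In the cytokine feedback list, which includes SOCS genes and the kinase gene PIM1, 3 of 10 were called. SOCS3, which blocks JAK kinases at the gp130 receptor (chromosome 17, 78356778 to 78360077), read 16.2, 12.5 and 14.9 CPM at time point 20 and 2.01, 2.90 and 3.27 CPM at 40. The groups were far apart, with 18.8% of the level left, a change of -2.41 ± 0.20 and an adjusted p of 2.35e-07. SOCS1 fell from 0.870 to 3.06 CPM to 0.527 to 0.575 CPM (adjusted p 0.0247, and 0.228 to 0.275 without replicate 2 of time point 20 or replicate 1 or 2 of 40), and PIM1, a cytokine-induced kinase, retained 55.3% (adjusted p 0.0004).

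The cytokines and growth factors themselves were called in 3 of 14 tested cases, and all 14 values were below 0, with a median of -0.70. No member was called without the replicate block or without replicate 3 of every group. LIF, a gp130 ligand, read 150, 143 and 100 CPM at time point 20 and 65.6, 96.1 and 56.5 CPM at 40, a change of -0.86 ± 0.15 (adjusted p 0.00254, and 0.0547 without replicate 1 of time point 40). The groups did not overlap, although replicate 2 of time point 40 came close to replicate 3 of time point 20. IL1B changed by -0.79 ± 0.16 (adjusted p 0.0142) with overlapping groups, since replicate 2 had 61.5 and 36.1 CPM while the others had 14.7 and 20.0 CPM at time point 20; its adjusted p was 0.0705 to 0.131 without replicate 2 or 3 of either time point. HBEGF, an EGF receptor ligand, stood just inside the threshold at an adjusted p of 0.0472 and outside it (0.0767 to 0.377) with any 1 library left out. IL6 changed by -1.60 ± 0.39 (adjusted p 0.0646), from 1.55 to 3.39 CPM at time point 20.

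In the NF-kB feedback list 2 of 20 members were called, with a list median of -0.11; neither was called without the replicate block. NFKBIA, the inhibitor that holds NF-kB in the cytoplasm, read 43.3, 47.0 and 27.1 CPM at time point 20 and 15.8, 13.4 and 8.22 CPM at 40, a change of -1.66 ± 0.17 (adjusted p 2.72e-06). NFKBIZ, a nuclear member of the IkB family, read 28.6, 22.0 and 19.4 CPM and then 8.43, 10.5 and 5.27 CPM, a change of -1.57 ± 0.18 (adjusted p 1.22e-05). Both sets of libraries were fully separated. TNFAIP3, the ubiquitin-editing enzyme A20, changed by -0.89 ± 0.22 (adjusted p 0.0722).

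Of the proteins that bind AU-rich RNA or cut it, 4 of 16 were called, and the 4 comprised the whole ZFP36 family tested and the ribonuclease ZC3H12A. The list median was 0.06, and without the replicate block 2 of the 16 were called. ZFP36 read 12.5, 12.2 and 8.41 CPM at time point 20 and 1.25, 4.05 and 0.949 CPM at 40. Replicate 2 retained more than the others, and the change was -2.42 ± 0.34 (adjusted p 0.000309). ZFP36L1 read 199, 162 and 177 CPM and then 72.5, 70.7 and 68.3 CPM, a narrow spread at both time points and a change of -1.34 ± 0.12 (adjusted p 3.71e-07). ZFP36L2 changed by -1.28 ± 0.13 (adjusted p 1.86e-06), with replicate 3 the highest at both time points. ZC3H12A changed by -1.30 ± 0.19 (adjusted p 0.000244). Of 44 genes of the general mRNA decay machinery, deadenylases, decapping factors and the exosome among them, none was called and the median was 0.03. DCP1B had the lowest p of that list, with a change of -0.37 ± 0.16 and an adjusted p of 0.593.

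Stress response genes fell in part. In the integrated stress response list 5 of 21 were called, with a median of -0.28. DDIT4, an inhibitor of mTORC1, read 23.7, 30.3 and 6.57 CPM at time point 20 and 5.08, 8.44 and 1.58 CPM at 40. Replicate 3 was low at both time points and the groups overlapped, while each pair fell, giving a change of -1.99 ± 0.19 (adjusted p 1.31e-06). DDIT3, the CHOP factor, changed by -1.04 ± 0.12 and PPP1R15A, the GADD34 subunit of the eIF2α phosphatase, by -0.89 ± 0.11, again with overlapping groups and falls in every pair. DDIT3 shares exon sequence with neighbouring genes on both strands. Without the replicate block 1 of the 21 was called.

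ADM, the precursor of the vasodilator peptide adrenomedullin and a hypoxia target (chromosome 11, 10304680 to 10307397), had the lowest p of all genes. It read 89.8, 92.0 and 101 CPM at time point 20 and 19.5, 19.4 and 21.0 CPM at 40. Replicates differed by little at either time point, and 21.1% of the level remained (log2 change -2.24 ± 0.14, adjusted p 5.31e-09). In the hypoxia list 2 of 18 were called, ADM and BHLHE40, and the list median was 0.04. VEGFA changed by -0.28 ± 0.11 (adjusted p 0.522).

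Among p53 targets 3 of 32 were called, PLK2, PLK3 and BTG2, and the list median was -0.02; none was called without the replicate block. CDKN1A, the p21 inhibitor of cyclin-dependent kinases, read 181, 254 and 181 CPM at time point 20 and 167, 179 and 154 CPM at 40. The lowest value of 20 lay just above the highest of 40, and the change of -0.29 ± 0.10 had an adjusted p of 0.416. BTG2, an antiproliferative adaptor of the deadenylase complex, read 2.20, 3.24 and 2.32 CPM and then 0.192, 0.880 and 0.422 CPM, a change of -2.36 ± 0.48 (adjusted p 0.013, and 0.0552 to 0.16 without replicate 2 or 3 of time point 20 or replicate 1 of 40). BTG2 had only 2, 10 and 4 raw counts at time point 40, so the size of its fall is poorly known. CDKN1B, the p27 inhibitor, retained 59.8% (adjusted p 0.00323, and 0.0657 without replicate 2 of time point 40) and was the 1 gene called among 17 G1 cyclins and inhibitors.

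Feedback genes of BMP and TGF-beta signalling were called in 4 of 16 cases, ID1, SMAD7, TGIF1 and ID3, with a list median of -0.17 (2 of 16 without the replicate block). ID1, an inhibitor of DNA binding by basic helix-loop-helix factors, read 13.7, 14.7 and 20.4 CPM at time point 20 and 6.13, 5.45 and 6.33 CPM at 40. No library of time point 40 came near those of 20, and the change was -1.43 ± 0.17 (adjusted p 1.63e-05). SMAD7, the inhibitory SMAD, retained 53.5% (adjusted p 0.000238) and ID3 52.7% (adjusted p 0.00323, and 0.0581 without replicate 2 of time point 40). Among other regulators, ARRDC3, an alpha-arrestin that sorts membrane receptors, read 52.1, 43.1 and 54.4 CPM and then 15.8, 12.7 and 23.2 CPM, a change of -1.55 ± 0.15 (adjusted p 1.05e-06). TXNIP, the alpha-arrestin that limits glucose uptake, kept 69.5% (adjusted p 0.0113, and 0.0855 to 0.125 without replicate 3 of time point 20 or replicate 1 or 2 of 40). SNAI2, a repressor of epithelial genes, changed by -1.61 ± 0.23 (adjusted p 0.000244).

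Zinc-finger genes of the ZNF series were called in 7 of 441 cases (1.59%, against 0.775% of all tested genes), with a list median of -0.12 and 293 values below 0 (1 call without the replicate block). Over all tested genes the median was -0.0021 and 50.5% of values were below 0. The median was -0.30 in the replicate 1 pair, -0.09 in pair 2 and -0.04 in pair 3. ZNF574 read 21.5, 25.6 and 21.4 CPM at time point 20 and 9.87, 9.94 and 10.5 CPM at 40, tight in both groups and without overlap (change -1.18 ± 0.15, adjusted p 4.57e-05). Of the 36 ZBTB genes only ZBTB39 was called, at -1.35 ± 0.19 (adjusted p 0.000194). SOX9, a developmental transcription factor, was the 1 of 7 SOX genes called and kept 63.9% (adjusted p 0.000327).

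Of the 110 genes, 7 were non-coding. Of these, 4 were hosts of small nucleolar RNAs, whose spliced exons are known targets of nonsense-mediated decay: SNHG12, SNHG1, SNHG15 and SNHG3, out of 26 such hosts tested, with a list median of -0.29 and none called without the replicate block. SNHG12 read 25.7, 22.6 and 18 CPM at time point 20 and 10.6, 11.1 and 8.33 CPM at 40, a change of -1.15 ± 0.15 (adjusted p 6.64e-05) with no overlap. SNHG1 kept 59.3%, and SNHG3 lost its call (adjusted p 0.067 to 0.117) without replicate 3 of time point 20 or replicate 2 or 3 of 40. The annotated small RNAs share exon sequence with all 4 hosts, so their reads cannot be told apart. SNHG3 also shares exon sequence with RCC1 on the same strand, and SNHG12 overlaps TRNAU1AP on the opposite strand. MIR222HG, the precursor transcript of the miR-221 and miR-222 pair, read 39.6, 27.1 and 32.2 CPM and then 11.3, 8 and 12.8 CPM, a change of -1.62 ± 0.21 (adjusted p 9.05e-05). AC020916.1, which contains the MIR23A, MIR27A and MIR24-2 genes, changed by -1.72 ± 0.28 (adjusted p 0.00173). It overlaps ZSWIM4 on the opposite strand. MIR221 itself was also called, on 1 to 31 raw counts a library, and lost its call (adjusted p 0.184 to 0.294) without replicate 1 or 3 of time point 20 or replicate 1 or 2 of 40.

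**Figure D3:**
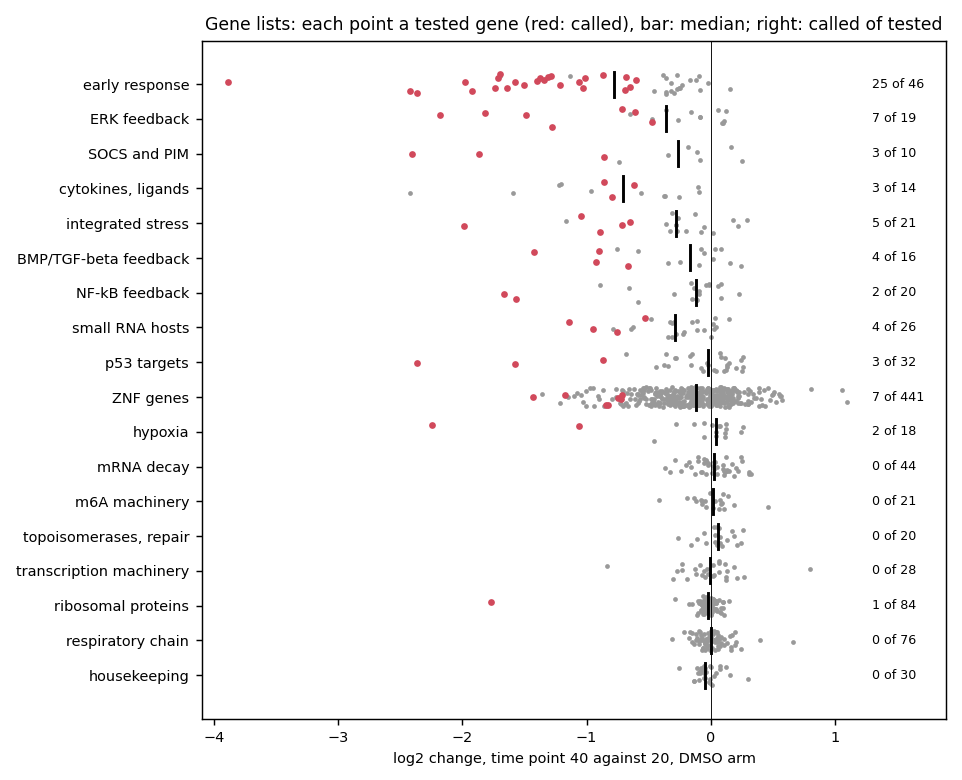
Log2 change from time point 20 to 40 in the DMSO arm (horizontal axis) of every tested gene in 18 gene lists (rows), red where called, with a black bar at the list median and the number called of those tested at the right. The early response list has 25 of 46 called, and the mRNA decay, m6A, topoisomerase, transcription machinery, respiratory chain and housekeeping lists have 0.

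In the lists of constitutive genes calls were about as rare as among all tested genes, of which 0.775% were called. None of 28 genes of the transcription machinery, 21 of m6A methylation, 20 of topoisomerases and repair, 27 of proliferation, 76 nuclear genes of the respiratory chain or 30 housekeeping genes was called. TOP2A and TOP2B, the topoisomerases that etoposide poisons, changed by 0.21 ± 0.14 and 0.19 ± 0.12 (adjusted p 0.793 for both). METTL3 and METTL14, the core of the m6A writer, changed by -0.19 ± 0.11 and -0.13 ± 0.12 (adjusted p 0.735 and 0.872). Of 84 ribosomal protein genes RPL36A alone was called, at -1.77 ± 0.31 (adjusted p 0.00268), and its exons overlap the readthrough gene RPL36A-HNRNPH2.

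The 3 pairs did not move alike in these abundant genes. Ribosomal protein genes had a median of 0.36 in the replicate 1 pair, -0.20 in pair 2 and -0.22 in pair 3, and respiratory chain genes 0.42, -0.21 and -0.19. Housekeeping genes stood at 0.20, -0.17 and -0.13. Matrix genes moved the other way, at -0.34, 0.12 and 0.11. The replicate 1 pair thus differed from the others in sign for all 4 lists, whereas the early response median was below 0 in every pair; the part of this shift in the calls was not tested.

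The genes that fell were short and had few exons. Of the 103 coding genes, 59 (57.3%) had at most 3 exons, against 12.9% of all tested coding genes, and 19 (18.4%) had a single exon, against 2.04%. The median gene span was 5401 bases for the genes that fell and 34133 bases for all tested. Their levels were not unusual: the median at time point 20 was 32.3 CPM, and 24.3 CPM over all tested genes. Exons of another gene on the same strand overlapped 13 of the 110 and 16.3% of all tested genes, and exons on the opposite strand overlapped 32 of the 110 and 40.9% of all. These shares are descriptions without a test.

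**Figure D4:**
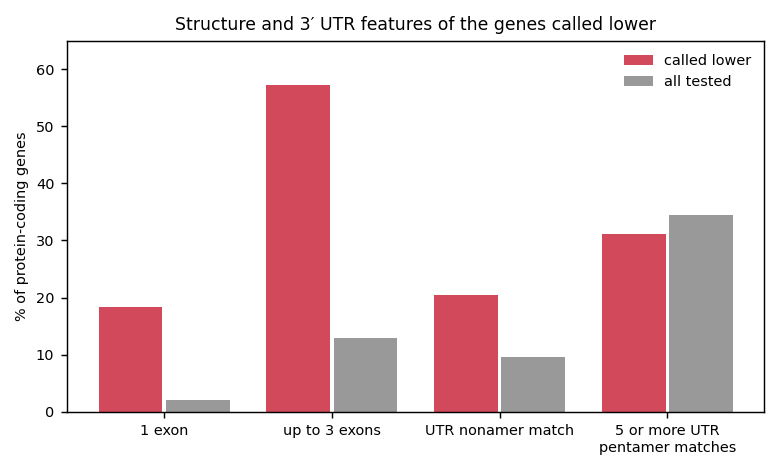
Share of protein-coding genes (vertical axis, %) with 1 exon, with up to 3 exons, with the 3′ UTR nonamer and with 5 or more ATTTA pentamers, for the genes called lower (red) and all tested genes (grey). The first 3 bars are higher for the genes that fell, at 18.4%, 57.3% and 20.4% against 2.04%, 12.9% and 9.57%, and the last is not, at 31.1% against 34.5%. The pentamer count takes no account of UTR length.

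EGR1, FOSL1, ATF3 and CTGF, none of them called, were picked after their values were seen. So were IER3, DUSP4, DUSP5, SGK1, CSRNP1, MIR221 and RGS3, called genes of which several belong to a list. Of the 110 genes, 40 belonged to none of the lists, and those described next were picked from them in the same way. GADD45B, a stress sensor that activates p38 and JNK kinases, read 47.9, 52.0 and 74.0 CPM and then 17.8, 18.5 and 29.7 CPM, a change of -1.40 ± 0.12 (adjusted p 3.71e-07). NUAK2, a kinase related to AMPK, read 7.15, 6.02 and 7.25 CPM and then 1.34, 1.58 and 1.27 CPM, a change of -2.29 ± 0.29 (adjusted p 4.47e-05). Neither gene had overlapping groups. PPP1R3C and PPP1R3B, subunits that direct a phosphatase to glycogen, kept 45.8% and 60.9%, the latter without a call (adjusted p 0.0538 to 0.1) when replicate 2 of time point 20 or replicate 1 or 2 of 40 was left out. EDN1, the precursor of the vasoconstrictor endothelin, kept 26.5% at 1.98 to 4.86 CPM. BMP4, a secreted morphogen, kept 70.8%, and BCL6, a transcriptional repressor, 68.8%. These 3 calls each ended without 1 of 4 or more of the 6 libraries, with adjusted p of 0.0588 to 0.187 for EDN1, 0.0719 to 0.207 for BMP4 and 0.0525 to 0.331 for BCL6. EIF4A1, a translation helicase, read 8.71, 6.47 and 7.83 CPM and then 1.92, 0.880 and 1.58 CPM. That gene shares exon sequence with SENP3-EIF4A1 and with small nucleolar RNA genes inside it, and their reads cannot be told apart.

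At the edge of the threshold, HES1, HBEGF and FZD8 had adjusted p of 0.0452, 0.0472 and 0.0476, and SNORA73B, PPP1R3D and CHSY3 followed at 0.0507, 0.0515 and 0.0519. The precision depended on the level: the median SE was 0.59 for genes below 1 CPM, where 1 of 994 was called, and 0.13 for those of 20 to 100 CPM, where 53 of 5607 were.

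The earlier interval of the same arm, from time point 0 to 20, shares the libraries of time point 20 with the later one. It also rests on a library that stands apart: the 550 tested genes annotated as antisense summed to 9165 CPM in replicate 2 of time point 0 and to 1983 to 2244 CPM in each of the other 17 libraries. In the early interval no gene was called in either direction (0%). Of the 14186 genes tested, 392 had an unadjusted p below 0.05, which is less than a share of 0.05. A gene without a call was not thereby shown to be unchanged. Without that library 296 had such a p and 1 gene was called, EIF3CL at -3.95 ± 0.63 (adjusted p 0.0481), which read 25.7 CPM in replicate 3 of time point 0 and at most 1.26 CPM in every other library. EIF3CL is a near-identical copy of EIF3C, and reads of the copies cannot be told apart. Side by side, ADM changed by -0.52 in the early interval and -2.24 in the late one, SOCS3 by -0.74 and -2.41, MYC by -0.34 and -1.70, NFKBIZ by 0.02 and -1.57, and SPRY2 by -0.12 and -1.28. The difference between the intervals was tested directly, and 11 genes passed (0.0775% of those tested), all with the more negative late change. They were ADM, PLK2, IER2, SPRY2, MYC, SOCS3, NFKBIZ, ZNF574 and, outside the naming rule, NUAK2, CSRNP1 and GADD45B. The values of time point 20 enter both intervals with opposite sign, so the 2 changes are not independent. Without the replicate block none of the 11 was called, and none was called without replicate 3 of every group or without replicate 3 of time point 20 alone. Without replicate 2 of time point 0, 9 of the 11 were called, and NFKBIZ and ZNF574 had adjusted p of 0.0658 and 0.103.

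**Figure D5:**
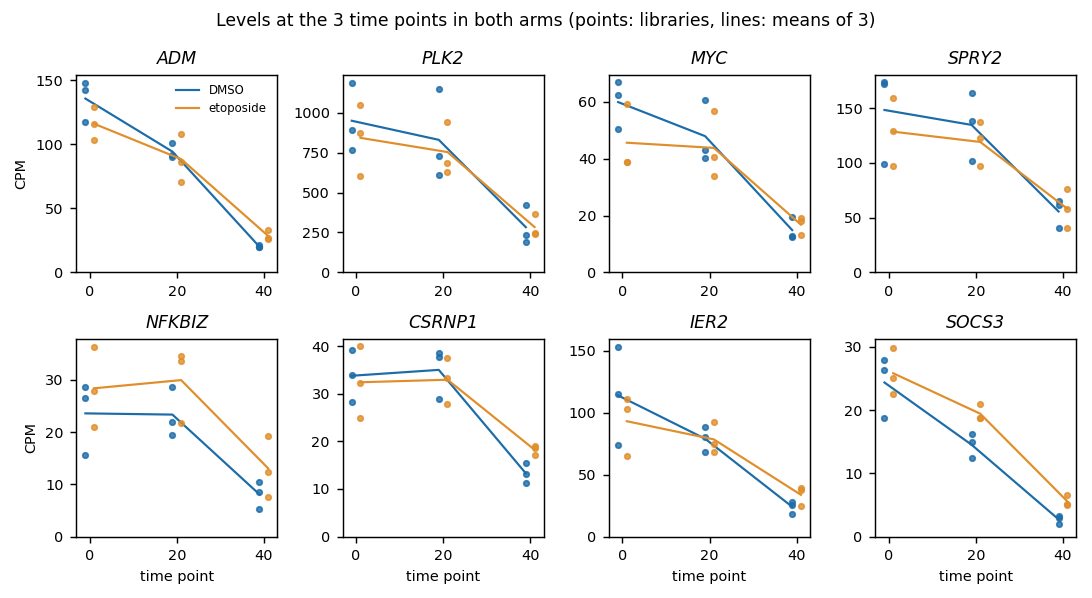
CPM (vertical axes, from 0) of 8 genes at time points 0, 20 and 40 (horizontal axes) in the DMSO arm (blue) and the etoposide arm (orange), with points for libraries and lines through the means of 3. In ADM the DMSO libraries lie at 89.8 to 101 CPM at time point 20 and at 19.4 to 21.0 CPM at 40, and the etoposide libraries at 70.9 to 108 and 25.8 to 32.7 CPM.

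The same interval in the etoposide arm, which uses other libraries, gave 69 genes called lower (0.486%) and none higher. Of these, 58 were among the 110, which is 52.7% of the DMSO list and 84.1% of the etoposide list. All 110 genes had a change below 0 with etoposide, with a median of -0.75, and 99 of them fell less there than with DMSO, a direction that the choice of the 110 by their fall with DMSO favours. ADM changed by -1.63 with etoposide, SOCS3 by -1.80 and MYC by -1.36. DDIT4 changed by -2.0 and ARRDC3 by -1.59, beside -1.99 and -1.55 with DMSO. BTG2 and PLK3 changed by -0.39 and -0.14 with etoposide (adjusted p 1 for both), beside -2.36 and -0.86 with DMSO. When the difference between the arms was tested, no gene passed by edgeR, limma-voom or DESeq2. By edgeR 544 of the 14186 genes had an unadjusted p below 0.05, again less than a share of 0.05. Of these, 256 had the more negative change in the etoposide arm and 288 the less negative. No gene was thus shown to fall differently in the 2 arms.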

How the data were processed

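Each library's deposited file lists one raw, unnormalised count for every gene. The submitters' processing notes name bcl2fastq, HISAT2, featureCounts and build GRCh38 (also given as hg38). Tool versions, annotation and the strand setting of the counting were not given in the sources used here. Per the file headers, the columns of replicate 3 carry the suffix BAM. Of 58051 Ensembl identifiers, 57447 were found in GENCODE release 29, the source of positions, exons and 3′ UTRs.

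Counts were tested with edgeR 4.0.16 (R 4.3.3): TMM factors of 0.978 to 1.02, the default filter (14186 genes with 99.84% of the counts), robust quasi-likelihood fit over all 18 libraries with 6 groups and the replicate number as block, and Benjamini-Hochberg adjustment over all tested genes. SE were derived from the F statistic. The code was tested on simulated counts. Medians by pair used log2 CPM with a prior count of 2. The numbers were taken to pair the samples: deviations from the group means correlated at 0.488 to 0.89 in the 3 same-numbered pairs of the 6 libraries, against -0.759 to 0.547 in the others (every negative value involves replicate 3), and at 0.359 to 0.911 over all 45 same-numbered pairs. Of the 6 libraries 4 correlated best with their own number; those of replicate 1 correlated more with replicate 2 of the other time point, at 0.547 and 0.539. DESeq2 1.42.0, limma 3.58.1 (voom), other scalings and filters, and left-out libraries were the alternatives.

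The comparison, the 43 gene lists and the rule for naming genes were chosen with earlier results of these data known. The rule takes the 20 largest falls among called genes of at least 5 CPM, the 10 largest rises, and the 4 lowest p of each list. Counting error alone underlies the floors.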

Additional observations from a re-analysis of the deposited data

Results flagged for a closer look

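In the DMSO arm, 11 genes changed differently in the later interval (20 to 40) than in the earlier one (0 to 20) by the edgeR quasi-likelihood test of that difference. The value given is the late log2 change minus the early one. NUAK2 had the largest size, -2.56, followed by ADM at -1.72, SOCS3 at -1.67 and NFKBIZ at -1.59. CSRNP1, a nuclear protein of the early response group, stood at -1.45, and MYC and PLK2 each at -1.35. ZNF574 stood at -1.29, IER2 at -1.25, SPRY2 at -1.16 and GADD45B at -1.07. Adjusted p-values ran from 0.00207 to 0.043. In each of the 11 the late change was the more negative, and both changes use the libraries of time point 20. Leaving out replicate 3 of time point 20 alone ended all 11 calls. Leaving out replicate 2 of time point 0, which stood apart in its antisense genes, ended those of NFKBIZ (adjusted p 0.0658) and ZNF574 (0.103). NUAK2, CSRNP1, NFKBIZ and ZNF574 had early changes above 0, at 0.26, 0.05, 0.02 and 0.12, and at 0.48, 0.03, -0.03 and 0.06 without that library.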

How the results depend on the processing

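The falls of the 81 called genes that the rule or the text names kept their direction under all 17 alternatives in which each was tested. The count was 31 without the replicate block, 51 without replicate 3 of every group and 49 in a fit of the 6 libraries alone. It was 73 at an adjusted p below 0.01, a stricter threshold that lowers the count by construction. Leaving out single libraries gave 64 to 112 calls, with 64 without replicate 2 of time point 40 and 72 without replicate 2 of time point 20. Without replicate 1 of time point 20, 10 of the 112 were higher. Without a filter 157 genes were called, 144 lower and 13 higher, and DESeq2 called 136, of which 2 were higher. Limma-voom called 107, scaling on housekeeping and ribosomal protein genes 85, and omission of the second DMSO library of time point 0 gave 115. Of these 81 genes, 27 stayed called without the replicate block, 48 without replicate 3 of every group and 69 under housekeeping scaling.

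The 11 genes that differed between the intervals became 0 without the replicate block, 0 without replicate 3 of every group, 1 under housekeeping scaling, 5 by limma-voom, 24 by DESeq2, 3 in a fit of the 9 DMSO libraries and 102 without a filter (44 below 0 and 58 above). Leaving out single libraries gave 0 to 13; replicate 3 of time point 20 gave the 0, and counts of 3 to 6 came without replicates 1 or 2 of time points 20 or 40 or replicate 3 of time point 0. The early interval went from 0 calls to 1 without the second DMSO library of time point 0, an alternative added after seeing the data. The difference between the arms had 0 calls under every setting run except no filter, with 6 (1 below 0 and 5 above). Where no construction is named, the cause was not tested. Precision was lowest for genes of 1 to 5 CPM and below, where the median SE was 0.36 or more.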

Other observations

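Among the genes not described in the comparison, several regulators of cell state also fell from time point 20 to 40, and all were picked after their values were seen. SGK1, a serum-induced kinase, read 41.2, 36 and 52.4 CPM and then 13.5, 14.9 and 21.5 CPM, without overlap (edgeR adjusted p 2.92e-06). SNAI1, a repressor of epithelial genes, read 7.61, 5.12 and 4.16 CPM and then 1.72, 2.46 and 0.949 CPM (adjusted p 0.000194, and 0.227 without the replicate block). MIDN, a protein of the nuclear degradation route, kept 46.1% of its level (adjusted p 6.64e-05), with separate groups. CITED2, a co-regulator of CBP and p300, fell in every pair, from 130, 114 and 253 CPM to 83.5, 54.6 and 130 CPM (adjusted p 9.03e-05), while its groups overlapped and replicate 3 was the highest at both time points. SERTAD3 kept 41.1% and MEX3B, an RNA-binding protein, 44.3%; both missed the threshold without the replicate block, as did CITED2 (adjusted p 0.471, 0.71 and 1). SIK1B, a near-identical copy of SIK1, kept 56%, and reads of the copies cannot be told apart.

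OTX2, a transcription factor that defines the retinal pigment epithelium, read 29.8, 27.2 and 22.9 CPM at time point 20 and 22.0, 17.2 and 17.2 CPM at 40 with DMSO. Its groups did not overlap, and the change of -0.50 ± 0.12 had an adjusted p of 0.0637, and of 0.0299 by DESeq2. With etoposide OTX2 changed by -0.58 (adjusted p 0.0326), and no gene passed the test of the difference between the arms. Among rises in the DMSO arm, the lowest p belonged to LINC00641, 0.57 ± 0.15 (adjusted p 0.119), followed by LIFR, a subunit of the LIF receptor, 0.63 ± 0.17 (adjusted p 0.138). Both passed without replicate 1 of time point 20 (adjusted p 0.0137 and 0.0242), and LIFR also without a filter (0.0489).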
